A study of Mus musculus with 4 samples.

Results

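The serpin protease inhibitor genes were followed through the cells of 4T1 tumours. The members were all 62 genes, of 55450 in the count matrix, whose symbol had the form Serpin plus a clade letter from a to i and a number, leaving out Serping1, the complement C1 inhibitor. Of these, 49 had at least 1 unique molecular identifier (UMI, a counted RNA molecule) in a kept cell, 15 had 1000 or more, 19 had at least 20 but fewer than 1000, and 15 had 1 to 19. The other 13 had none, and they were Serpina16, Serpina1e, Serpina1f, Serpina3a, Serpina3j, Serpina3k, Serpina7, Serpinb13, Serpinb6d, Serpinb9d, Serpinb9f, Serpinb9g and Serpini2. Counting a gene as detected when at least 3 kept cells had a UMI, 42 of the 62 members were detected, a larger share than the 51% of all genes. All genes here are the rows of the matrix, coding or not, whereas 61 of the 62 members have a coding transcript. The 2 shares are therefore not of like genes.

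4T1 is a carcinoma line of the mouse mammary gland, and the hosts were female BALB/c mice aged 6 to 8 weeks. Each mouse received 1000000 cells in 25 µl on the right flank, and tumours were taken on day 13. The 4 labelled samples were 2 given phosphate-buffered saline (PBS, labelled LC-2 and LC-5), 1 given TIOs and near-infrared light (TIOs+NIR3, labelled LC-6), and 1 titled PBS whose protocol describes TIOs, which was left unassigned. TIOs, a T cell-inspired oncolytic system, are liquid-nitrogen-treated macrophages loaded with upconverting nanoparticles that carry the photosensitizer chlorin e6, azobenzene and the ferroptosis inducer RSL3. They were injected into a vein on day 7, and light of 980 nm at 1.0 W per square centimetre followed on day 8, day 9 and day 10, for 5 min each. The methods describe sorting for CD45+ cells. The deposited matrix joins 4 libraries, told apart only by a number at the end of each barcode, and nothing in the labels ties a number to a sample. The libraries were therefore treated as samples of unknown treatment, no treatment comparison was made, and the values below are descriptions with no test between groups.

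Most serpins are suicide inhibitors. A protease cuts the exposed reactive centre loop near the carboxyl end, and the serpin then traps the enzyme in a covalent complex. Clades A, E, F and H are mostly secreted or kept in the secretory pathway and act on clotting, fibrinolysis and matrix, while clade B members mostly stay in the cytosol and protect cells from their own or a neighbour's proteases, and some members inhibit nothing. In the mouse, clades A and B have expanded into clusters of near copies: 24 of the 62 genes lie on chromosome 12, 15 on chromosome 13 and 14 on chromosome 1.

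The loop decides which protease a serpin meets, so the coding bases around it are shown for the pairs the results turn on. Each run of 90 bases starts at the conserved hinge of the loop, in the last exon, on the coding strand, from the GRCm38 genes of GENCODE vM21. Capitals mark bases that differ from the named partner at the same distance from the hinge, with no gaps allowed.
Serpinb6b (against Serpinb6a, chr13:32978201-32978290, + strand): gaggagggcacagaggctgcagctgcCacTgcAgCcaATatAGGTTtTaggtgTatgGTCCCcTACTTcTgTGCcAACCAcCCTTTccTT
Serpinb6a (against Serpinb6b, chr13:33918110-33918199, - strand): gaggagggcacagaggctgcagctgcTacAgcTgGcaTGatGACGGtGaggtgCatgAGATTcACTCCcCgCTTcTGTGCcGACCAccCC
Serpinb9 (against Serpinb9b, chr13:33015693-33015782, + strand): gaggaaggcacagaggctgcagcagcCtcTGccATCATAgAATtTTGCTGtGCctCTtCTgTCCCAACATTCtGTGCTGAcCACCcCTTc
Serpinb9b (against Serpinb9, chr13:33039796-33039885, + strand): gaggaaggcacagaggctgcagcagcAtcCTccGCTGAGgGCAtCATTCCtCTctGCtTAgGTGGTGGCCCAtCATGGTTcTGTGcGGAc
Serpina3g (against Serpina3n, chr12:104241066-104241155, + strand): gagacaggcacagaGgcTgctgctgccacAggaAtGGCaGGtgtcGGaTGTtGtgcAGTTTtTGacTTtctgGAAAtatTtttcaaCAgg
Serpina3n (against Serpina3g, chr12:104413442-104413531, + strand): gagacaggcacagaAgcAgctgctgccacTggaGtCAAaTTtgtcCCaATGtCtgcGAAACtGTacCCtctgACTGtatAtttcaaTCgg
Serpinb3b (against Serpinb3a, chr1:107154438-107154527, - strand): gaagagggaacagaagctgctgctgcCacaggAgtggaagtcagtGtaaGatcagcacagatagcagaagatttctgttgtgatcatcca
In the first 30 bases, which hold the hinge, Serpinb6a and Serpinb6b differed at 2 positions, and over the whole run at 39. Serpinb9 and Serpinb9b differed at 2 of the first 30 and at 49 of 90, and Serpina3n and Serpina3g at 3 of the first 30 and at 31 of 90. From the hinge to the conserved serpin signature there are 24 codons in Serpinb6a and 22 in Serpinb6b, and 23 in Serpinb9 and 26 in Serpinb9b. With no gaps allowed, part of the capitals near the end of these 4 runs is thus a shift of the same bases, 23 of the 39 and 25 of the 49 differences lying in the last 30 bases. Serpina3n and Serpina3g both have 25 codons, and Serpinb3a and Serpinb3b, which differed at 4 of the 90 bases, both have 24.

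Because these libraries are read near the end of the transcript, the last 500 bases of each member were also searched for runs of 31 bases found in another member. Serpinh1, Serpinf1, Serpinb2, Serpine2, Serpinb1a, Serpinb9, Serpinb6b, Serpinb8, Serpinb5 and Serpinb10 shared none. The share was 0.213% for Serpinb6a and 1.70% for Serpina3n, but 15.1% for Serpina3g, 14.0% for Serpinb9b, 24.3% for Serpinb3b, 17.4% for Serpinb3a, 12.6% for Serpina3f, 53.2% for Serpina1b and 60.6% for Serpina1d. Counts of these last 7 genes are therefore uncertain between copies. Serpina3h, annotated as a transcribed pseudogene, has no coding transcript. Serpinb10 and Serpinb2 overlap on the same strand over 6476 bases of gene span, so some of the 1056 UMIs of Serpinb10 may belong to its neighbour.

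In all, 32133 of 33064 barcodes had at least 300 genes and at most 15% mitochondrial UMIs, with 354742109 UMIs, of which the members took 749773 (0.211%). The 5 most abundant members, Serpinh1, Serpinb6a, Serpinf1 and Serpinb2 among them, held 85.0% of these. Cells were given a class from marker genes that include no serpin, and 25728 cells (80.1%) fell in 17 classes, each to be read as cells with the markers of that type; the 6405 others, which include cells with markers of several types, stayed out. By the gating rule each class carries its markers, with 6 or more usable in each class but NK, B and skeletal muscle. Ptprc (CD45) had a UMI in 13.2% of tumour-like, 8.33% of pericyte-like and 29.3% of fibroblast-like cells against 99.2% of NK-like cells. The cells were thus not all CD45+. Levels are given as CPM, a gene's UMIs scaled to 1000000 in the class, with exact 95% Poisson intervals that cover counting error only.

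Library 1 stood apart from the others. It held 7847 kept cells at a median of 11698 UMIs, against 8614, 6783 and 8889 cells at 2642, 2695 and 7182 UMIs in libraries 2, 3 and 4. It also held 3664 of 3861 tumour-like cells and all 63 keratinocyte-like cells, but 183 of 4187 fibroblast-like cells. Of the mature dendritic cells (DC), 191 of 225 were in library 3. The libraries shared 95 barcode sequences, carried by 190 cells (0.591%). In immune classes the summed fibroblast markers stood at 0.277% to 0.498% of their fibroblast level in library 1, and at 2.16% to 3.39%, 2.97% to 4.30% and 3.08% to 5.26% of it in libraries 2, 3 and 4. Free RNA and mixed droplets cannot be told apart in these values.

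The fibroblast-like class carried the most serpin RNA. Its summed level was 4547 CPM (4535 to 4559), with 5022, 5669, 3687 and 4398 CPM in libraries 1, 2, 3 and 4. Mature DC followed with 3587 CPM in library 3, then pericyte or smooth muscle-like cells with 2781 and 1612 CPM in libraries 2 and 3 and keratinocyte-like cells with 2309 CPM in library 1. The lowest level in any library among the fibroblast-like cells was thus above the level in every other class with at least 20 cells in a library.

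**Figure D1:**
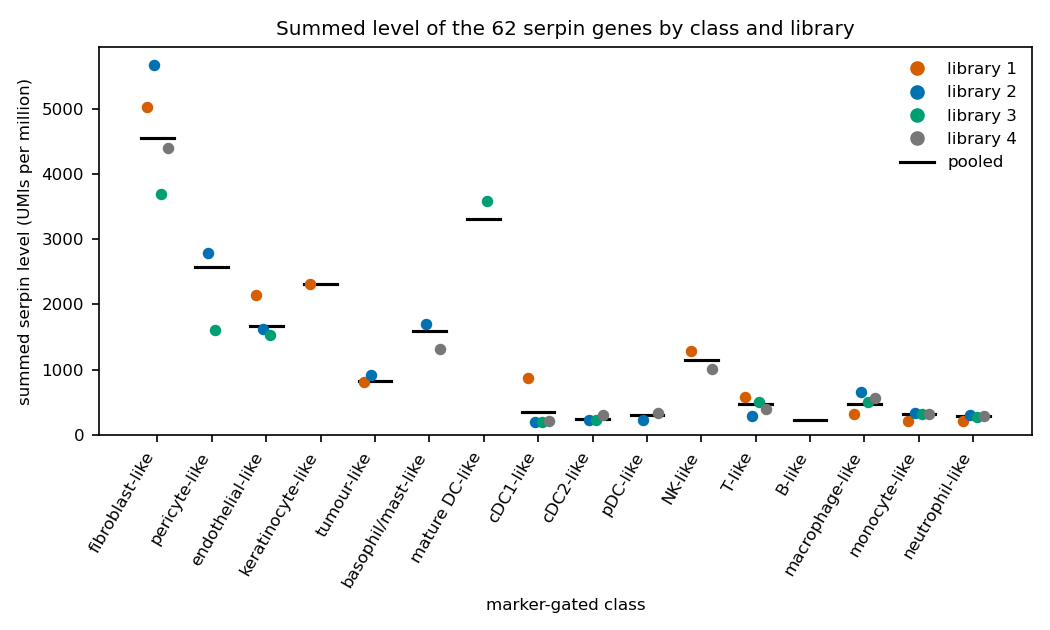
Summed serpin level in each class, in CPM, with a point for each library of at least 20 cells. Fibroblast-like cells lie between 3687 and 5669 CPM and mature DC at 3587 CPM, while neutrophil-like cells stay between 218 and 312 CPM.

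Endothelial-like cells had 2141, 1628 and 1539 CPM in libraries 1, 2 and 3, basophil or mast-like cells 1696 and 1319 CPM in libraries 2 and 4, and NK-like cells 1281 and 1012 CPM in libraries 1 and 4. Tumour-like cells had 820 and 923 CPM in libraries 1 and 2, below every stromal class. Macrophages, T cells, monocytes, neutrophils and B cells were pooled at 468, 481, 322, 286 and 236 CPM. The one immune class whose libraries disagreed strongly was cDC1, the conventional dendritic cells that present antigen to CD8 T cells, at 869 CPM in library 1 and 201 to 209 CPM in the others.

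With every cell thinned to 1000 UMIs, a fibroblast-like cell had UMIs of 2.64 members on average and up to 8, and 5.34% of these cells had none. Mature DC had 1.74 members per cell, pericyte-like cells 1.53 and keratinocyte-like cells 1.47. In contrast, 76.4% of neutrophil-like cells had no member at this depth.

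**Figure D2:**
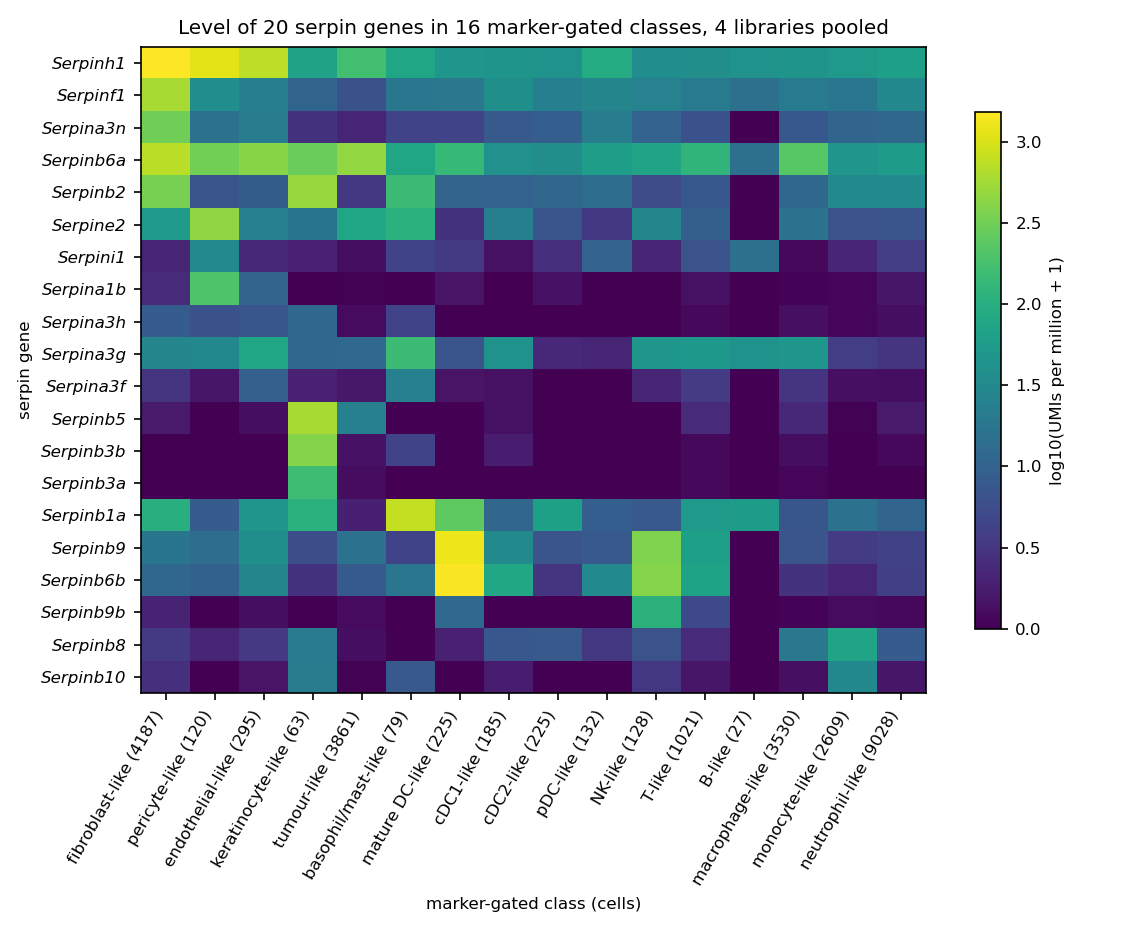
Level of 20 members (rows) in 16 classes (columns, with their number of cells), as the log10 of UMIs per 1000000 plus 1 over the 4 libraries pooled. Serpinh1, Serpinf1 and Serpina3n are brightest in fibroblast-like cells, and Serpinb9 and Serpinb6b in mature DC at 1267 and 1490.4 CPM.

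Of 27 members with at least 100 UMIs in gated cells, 21 had over 50% of them in 1 class, a larger share than the 43% of all genes under the same rule. In 15 of the 27 the class was the fibroblast-like one, also above the 31% of all genes; 2 had it in monocyte-like cells (Serpinb8 and Serpinb10), 2 in keratinocyte-like cells (Serpinb3a and Serpinb3b), 1 in tumour-like cells (Serpinb5) and 1 in pericyte-like cells (Serpina1b). A class with many deep cells, such as the fibroblast-like one with a median of 28084 UMIs, gathers UMIs of any gene, and with each cell thinned to 1000 UMIs 8 of 13 members passed, beside 23.04% of all genes. The margin over all genes depended on library 1. Without it, 22 of 25 members passed, beside 78.3% of all genes. The share of all genes in the fibroblast-like class alone was not counted for that setting.

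Serpinh1, the endoplasmic reticulum chaperone that folds procollagen and inhibits no protease, was the most abundant member. It reached 1545 CPM (1539 to 1552) in fibroblast-like cells, with 1769.7, 1871, 1125 and 1671 CPM in libraries 1, 2, 3 and 4. The highest and lowest libraries differed 1.66-fold, and no other class reached the fibroblast-like level in the same library. Pericyte-like cells had 1408 and 560.4 CPM in libraries 2 and 3, endothelial-like cells 840.0, 803 and 462 CPM in libraries 1, 2 and 3, and tumour-like cells 158 and 255 CPM in libraries 1 and 2. After thinning, 72.04% of fibroblast-like cells had a Serpinh1 UMI (70.6% to 73.4%, exact binomial interval), against 6.12% of neutrophils (5.62% to 6.65%), which are not collagen producers. The unthinned shares were 94.5% and 11.1%, at medians of 28084 and 1809 UMIs. Among collagen genes of a fixed list of partners (proteases, cofactors, receptors and Serpinh1 clients), Col1a1 was pooled at 5966 CPM in fibroblast-like cells, and Col4a1, a basement membrane collagen, at 2166 CPM in endothelial-like and 2165 CPM in pericyte-like cells. Col1a1 was itself a marker that gated the fibroblast-like class, whereas Col4a1 was a marker of no class. The genes whose levels were most like that of Serpinh1 over 42 class-by-library groups were Fkbp9 (Pearson r = 0.970) and Sparc (0.964), over groups that share libraries and depth.

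Serpinf1, pigment epithelium-derived factor, a secreted member without protease inhibition that binds the lipase Pnpla2, was close to fibroblast-specific in level. Fibroblast-like cells had 1234, 838, 491 and 446 CPM in libraries 1, 2, 3 and 4, highest in library 1 and lowest in library 4. No other class exceeded 45.5 CPM in any library, and 96.8% of its UMIs in gated cells were in fibroblast-like cells. Its most alike genes were Cpxm1 (r = 0.963) and Sfrp2 (0.959).

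Serpine2, protease nexin 1, which inhibits thrombin and urokinase at the cell surface, had another order. Pericyte-like cells were highest, at 378 and 359.6 CPM in libraries 2 and 3, and fibroblast-like cells had 319, 68.6, 32.2 and 34.3 CPM in libraries 1, 2, 3 and 4. Tumour-like cells had 74.0 and 66.1 CPM in libraries 1 and 2. The fibroblast-like cells of library 1 thus stood far above those of the other 3 libraries. Their mixture of subsets also differed, as given below for Serpinb2. The level in library 1 was 431% of that in the tumour-like cells of the same library. Tumour markers in these fibroblast-like cells were at 9.10% of their tumour-like level. In cDC1, Serpine2 was at 77.6 CPM in library 1 and 10.3, 7.64 and 4.06 CPM in libraries 2, 3 and 4, and the value in library 1 was 105% of that in tumour-like cells. Whether tumour RNA in these cells contributed was not tested. Of the partners, Plau (urokinase) had its top pooled level, 309.7 CPM, in fibroblast-like cells, and its receptor Plaur in neutrophils at 759 CPM. Plat (tissue-type plasminogen activator) had 126 CPM in pericyte-like and 117 CPM in fibroblast-like cells.

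Serpinb2, plasminogen activator inhibitor 2, is a mostly cytosolic clade B member known as a stress-induced gene of keratinocytes, monocytes and fibroblasts. It was pooled at 499 CPM (457 to 544) in keratinocyte-like cells, all in library 1, and at 33.6, 479.6, 187 and 386 CPM in fibroblast-like cells of libraries 1, 2, 3 and 4. Library 1 was far below the other 3 libraries in fibroblast-like cells. The 10 richest cells held 10.7% of its UMIs, a higher share than for Serpinh1 (1.12%). Fibroblast-like cells were split by 1 UMI of Lrrc15, a marker of myofibroblast-like cells, or of Dpt, a marker of resident fibroblasts; those with neither had 1258 CPM of Serpinb2 in library 4, and Lrrc15+ cells 629 and Dpt+ Lrrc15- cells 232 CPM there. Such a split depends on depth, since a shallow cell can lack a UMI by chance. Lrrc15+ cells were 145 of 183 fibroblast-like cells in library 1. In libraries 2, 3 and 4 they were 608 of 1634, 184 of 1237 and 205 of 1133. Levels of any member in fibroblast-like cells of library 1 and of the others thus come from different mixtures. In library 3 the order was not the same, with 129 CPM in cells with neither and 298 CPM in Lrrc15+ cells.

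**Figure D3:**
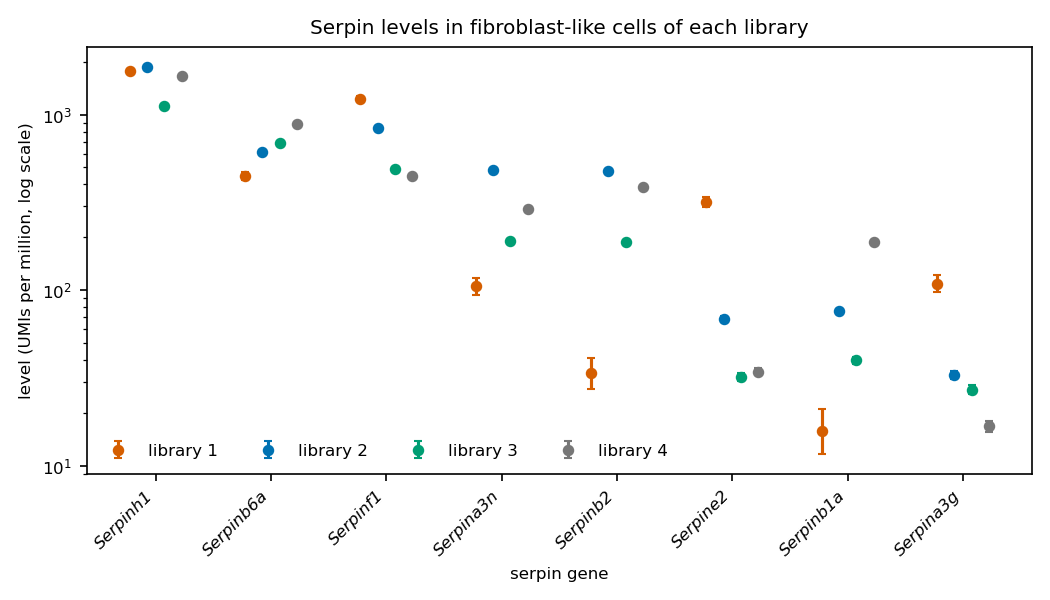
Levels of 8 serpins in fibroblast-like cells of the 4 libraries, in UMIs per 1000000 (CPM) on a log axis, with exact 95% Poisson intervals as bars. Serpinh1 leads in every library, while Serpinb2 ranges from 33.6 CPM in library 1 to 479.6 CPM in library 2.

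Serpinb2 in neutrophils was 9.38% of the fibroblast level in library 2, above the 3.39% of the fibroblast markers. Whether neutrophils make it was not tested.

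Serpina3n, a secreted inhibitor of chymotrypsin-like proteases, was also a fibroblast-like gene here. Its levels were 106, 484, 192 and 292 CPM in libraries 1, 2, 3 and 4, and 97.7% of its UMIs in gated cells were in these cells. No other class exceeded 57.8 CPM, reached by the 41 endothelial-like cells of library 3. The most alike gene was Prg4 (r = 0.939). Thinned, 23.8% of fibroblast-like cells had a UMI (22.5% to 25.1%), against 1.19% of neutrophils (0.966% to 1.44%), and unthinned 69.3% and 2.06%.

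Serpina3g, an intracellular inhibitor of cysteine cathepsins found in activated T cells and macrophages, differed among libraries in most classes. In T cells it was at 126, 8.60, 14.7 and 4.15 CPM in libraries 1, 2, 3 and 4, in cDC1 at 175, 2.93, 2.55 and 2.03 CPM, and in macrophages at 89.8, 8.24, 22.2 and 4.92 CPM. Monocytes had 43.7, 1.35, 0.530 and 2.40 CPM. Library 1 was highest in each of these classes, with no overlap. NK-like cells had 162 CPM in library 1 and 3.93 CPM in library 4, and endothelial-like cells 183, 62.02 and 54.7 CPM in libraries 1, 2 and 3. In libraries 2 and 4 the highest class was basophil or mast-like, with 168 and 99.9 CPM.

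**Figure D4:**
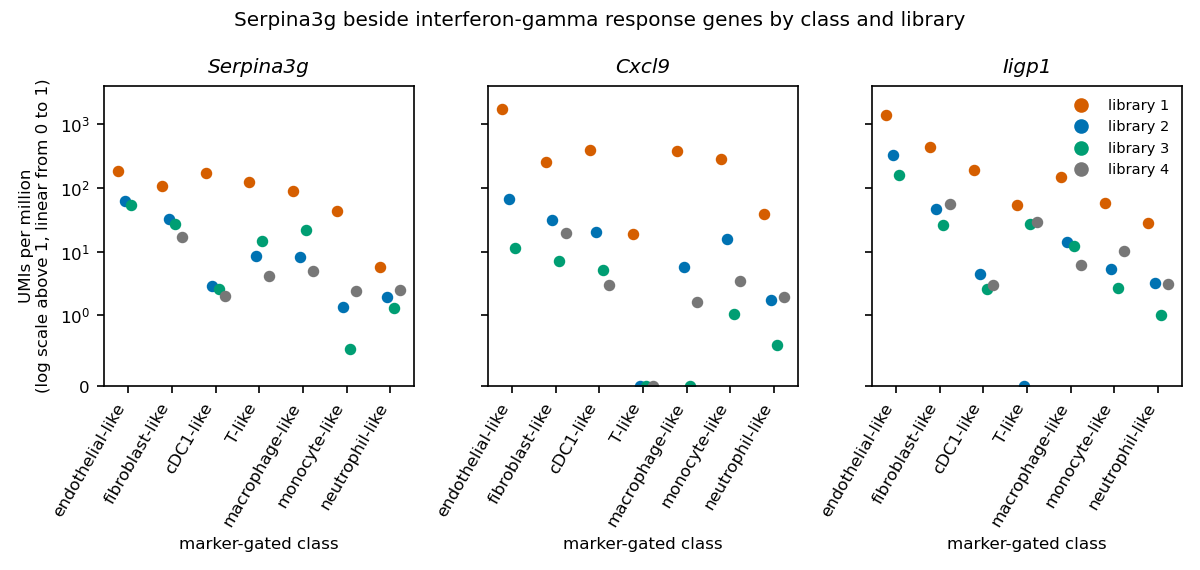
Levels of Serpina3g, Cxcl9 and Iigp1 (one panel each) by class, in UMIs per 1000000 (CPM) on an axis that is linear from 0 to 1 and log above, with a point for each library of at least 20 cells. Library 1 is highest in all 7 classes drawn for the 3 genes, at 183 CPM of Serpina3g in endothelial-like and 5.70 CPM in neutrophil-like cells.

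The fixed interferon-gamma companions were read in the same classes. Cxcl9, a chemokine gene switched on by interferon gamma, was 65.6-fold higher in macrophages of library 1 than in the highest other library, 19.3-fold in cDC1, 26.0-fold in endothelial-like cells and 8.12-fold in fibroblast-like cells. Iigp1, an interferon-induced GTPase, was 44.3-fold higher in cDC1 and 10.5-fold in macrophages. Irf1, an interferon-induced transcription factor gene, was 0.939-fold in macrophages and 0.985-fold in monocytes, and between 1.29-fold in neutrophils and 2.99-fold in cDC1 elsewhere. The companions thus differed in size, with Cxcl9 and Iigp1 far apart between libraries and Irf1 much less so. The gene most alike in level to Serpina3g was Dnaja1 (r = 0.745), a heat shock gene. It was followed by Dnajb1 (0.681), Fosb (0.669), Gm15542 (0.661) and Cxcl9 (0.642). Tumour-like cells of library 1 had 12.3 CPM of Serpina3g, so the macrophages of the library were at 730% of that level.

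Members at least 2-fold higher in library 1 than in each other library were then counted in 5 classes. In monocytes this held for 1 of 14 members tested (Serpina3g), beside 5.64% of all genes. In macrophages it held for 4 of 15 (Serpine2, Serpinb5, Serpina3f and Serpina3g), beside 6.44%, in cDC1 for 4 of 10 (Serpine2, Serpinb6b, Serpinb9 and Serpina3g), beside 3.06%, in T cells for 4 of 13 (Serpine2, Serpinb9b, Serpinb6a and Serpina3g), beside 3.27%, and in fibroblast-like cells for 4 of 30 (Serpine2, Serpinb5, Serpinb9 and Serpina3g), beside 5.5%. The member share was near the background in monocytes and above it in the other 4 classes, and Serpina3g was in all 5 counts. Library 1 had already stood out for Serpina3g before this count. Members with few UMIs elsewhere could also enter a count through library 1 itself. In cDC1, Serpinb6b had UMIs in 27 cells of library 1 and in 0, 3 and 0 cells of libraries 2, 3 and 4. In macrophages, Serpinb5 was at 2.60 CPM in library 1 and at most 0.323 CPM elsewhere. The shares above the background thus say little of such members. Tumour markers in the other classes of library 1 stood at 5.39% to 10.3% of their tumour level, against 0.605% to 2.12% in library 2.

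Promoter sequence, 250 bases before the start in RefSeq for GRCm38.p6, was read for 53 members and searched on both strands. The STAT site TTCNNNGAA was in 8 of 53 members (15.1%), beside 8.13% of all genes, and the interferon-stimulated response element (GAAA, 2 bases of any kind, GAAA) in 2 (3.77%), beside 3.46%. Serpina3f, Serpina3g and Serpina3i, of the same cluster and with alike sequence at the STAT site, are among the 8, so the matches are not all separate cases. A kappaB site (GGGA, 2 bases of any kind, TTCC) was in 0 members, beside 1.36%. Windows are shown for members of the library 1 results that hold either motif, with the motif in capitals and the sequence in the strand of transcription. A match is a description of letters only. Serpine2 and Serpinb6b, also high in library 1, held neither, and Serpinb2, low there, held a STAT site.
Serpina3g (chr12:104236097-104236139, + strand): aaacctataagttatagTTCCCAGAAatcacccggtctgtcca
Serpina3f (chr12:104214406-104214448, + strand): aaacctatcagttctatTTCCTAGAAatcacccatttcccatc
Serpinb9 (chr13:33004478-33004521, + strand): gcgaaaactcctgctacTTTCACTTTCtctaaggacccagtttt
Serpinb6a, STAT site (chr13:34002846-34002888, - strand): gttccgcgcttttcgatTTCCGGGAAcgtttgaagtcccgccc
Serpinb6a, response element (chr13:34002852-34002895, - strand): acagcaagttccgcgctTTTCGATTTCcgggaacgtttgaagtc
The capitals are the STAT site in Serpina3g and Serpina3f, beginning 33 and 121 bases before the start, and the interferon-stimulated response element in Serpinb9, read on the opposite strand, 46 bases before it. In Serpinb6a they begin 77 and 84 bases before the start and share bases.

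Serpinb6a, a cytosolic inhibitor of cathepsin G and related serine proteases, was the second most abundant member and the most widespread. Fibroblast-like cells had 446, 612, 691 and 882 CPM in libraries 1, 2, 3 and 4, and tumour-like cells 474 and 392 CPM in libraries 1 and 2. In library 1 the tumour-like cells were thus slightly above the fibroblast-like cells, and in library 2 below them. Macrophages had 79.8, 384, 242 and 363 CPM, lowest in library 1, whereas T cells had 225, 70.0, 73.6 and 73.7 CPM, highest there. CD8 T cells, 234 of 253 of which came from library 1, had 259 CPM in it.

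Serpinb1a, an inhibitor of neutrophil elastase and cathepsin G, was low in neutrophils themselves. They had 38.5, 6.40, 5.05 and 13.8 CPM in libraries 1, 2, 3 and 4. Basophil or mast-like cells had 1062 and 839.6 CPM in libraries 2 and 4, mature DC 289 CPM in library 3, and fibroblast-like cells 15.8, 75.5, 39.8 and 187 CPM. Split after these values were seen, 52 basophil or mast-like cells with a UMI of Mcpt8, a basophil protease, and none of Tpsb2, Cma1 or Mcpt4 had 384 CPM (296 to 489), and 17 cells with a UMI of these mast cell proteases and none of Mcpt8 had 1896 CPM (1541 to 2309). For Serpina3g the order turned round: 230.1 CPM (164 to 315) in the first and 0 UMIs in the second, where 3 UMIs would be 57.5 CPM. Ctsg, the cathepsin G gene, was at 314 CPM in the class, while Elane, the neutrophil elastase gene, was pooled at 0.74 CPM or less in every class.

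Serpinb9, the cytosolic inhibitor of granzyme B that shields cytotoxic cells and dendritic cells from that protease, and its neighbour Serpinb6b were high in the same classes. Mature DC of library 3 had 1357 CPM of Serpinb9 and 1630.3 CPM of Serpinb6b, NK-like cells 478 and 378 CPM in library 1 and 277 and 399 CPM in library 4. Over 42 class-by-library groups, the levels of the pair had r = 0.913, the highest for either gene with any gene of at least 1000 UMIs. At single-cell level, 87.1% of mature DC and 52.3% of NK-like cells had UMIs of both, against 7.91% of CD8 T cells and 0.0222% of neutrophils, at medians of 9084, 4889, 4522 and 1809 UMIs. After thinning, Serpinb9 was seen in 67.7% of mature DC (61.1% to 73.9%) and 0.273% of neutrophils (0.173% to 0.409%).

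**Figure D5:**
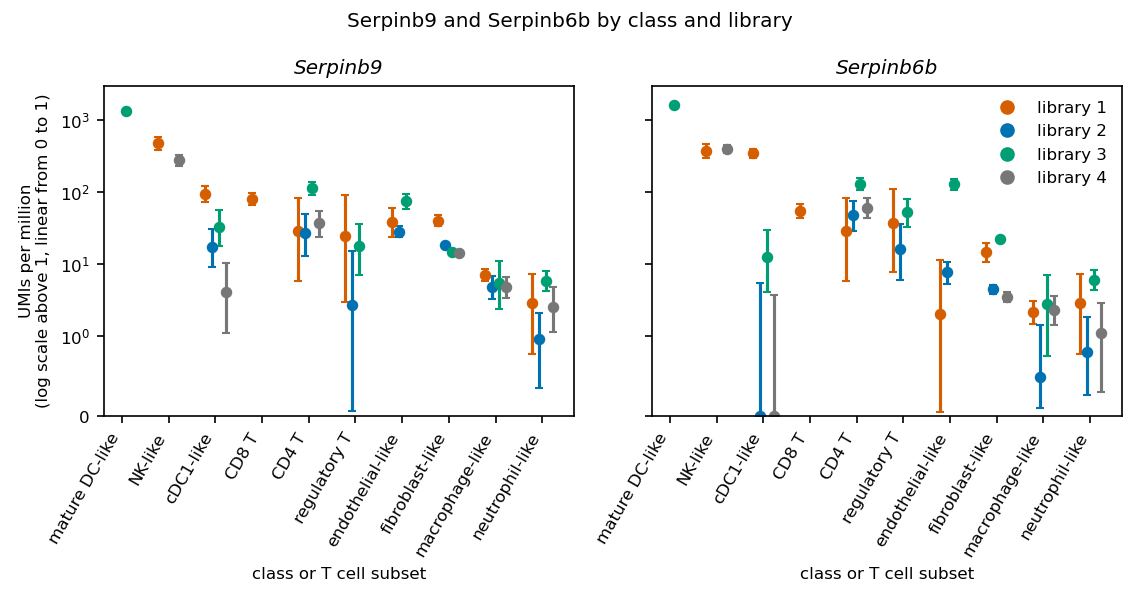
Levels of Serpinb9 (left) and Serpinb6b (right) by class or T cell subset, in UMIs per 1000000 (CPM) on an axis linear from 0 to 1 and log above, with a point for each library of at least 20 cells and exact 95% Poisson intervals as bars. Mature DC of library 3 lead both panels at 1357 and 1630.3 CPM, and cDC1 of library 1 lie far above those of libraries 2, 3 and 4 for Serpinb6b.

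The target was not where the inhibitor was highest. Gzmb was at 5511 and 2357 CPM in NK-like cells of libraries 1 and 4 and at 1.75 CPM, or 3 UMIs, in mature DC of library 3. Serpinb9b, a paralogue of Serpinb9, was at 76.5 and 94.3 CPM in NK-like cells of the same libraries and at 13.4 CPM in mature DC. In cDC1, Serpinb9 was at 95.8, 17.6, 33.1 and 4.06 CPM and Serpinb6b at 349, 0, 12.7 and 0 CPM in libraries 1, 2, 3 and 4, with UMIs in 19 and 27 of the 44 cells of library 1. The summed mature DC markers in cDC1 were at 67.7, 57.2, 76.4 and 28.4 CPM and those of NK at 3.30, 1.47, 0 and 4.06 CPM. Both lists are markers of the gate, which left out cells scoring high for a second class. These values were therefore limited by the gate and say little of mixed cells. Whether RNA of other cells contributed in library 1 was not tested. CD4 T cells had 28.7, 26.9, 113 and 37.1 CPM of Serpinb9 and 28.7, 48.5, 131 and 60.8 CPM of Serpinb6b, highest in library 3. Regulatory T cells had 25.0, 2.75 and 17.6 CPM of Serpinb9 in libraries 1, 2 and 3.

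Serpinb8 and Serpinb10, clade B members of the chromosome 1 cluster, had most of their UMIs in monocytes. Serpinb8 stood at 10.1, 46.0, 68.4 and 74.8 CPM in monocytes and at 10.3, 27.8, 21.5 and 23.3 CPM in macrophages of libraries 1, 2, 3 and 4. Serpinb10, known from haematopoietic cells, was at 6.73, 4.73, 16.4 and 34.2 CPM in monocytes and at most 1.35 CPM in macrophages. It also had 21.3 CPM in keratinocyte-like cells of library 1 and 12.9 CPM, from 1 UMI, in basophil or mast-like cells of library 2, both above the monocytes of the same library, and without library 4 its monocyte level was 0.363 times the pooled one. Library 4 was highest for both, and library 1, with 56 monocytes, was at the level of its macrophages for Serpinb8. The AP-1 site TGANTCA was in 11 of 53 member promoters (20.8%), beside 7.82% of all genes. Serpina1a, Serpina1b, Serpina1c and Serpina1d, near copies with alike sequence at the site, are among the 11, so the matches are not all separate cases. The chromosome 1 members with the site include these.
Serpinb8 (chr1:107589966-107590005, + strand): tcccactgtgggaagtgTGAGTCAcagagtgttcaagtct
Serpinb10 (chr1:107528932-107528972, + strand): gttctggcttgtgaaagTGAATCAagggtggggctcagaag
Serpinb2 (chr1:107511312-107511352, + strand): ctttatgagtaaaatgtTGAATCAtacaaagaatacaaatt
Serpinb5 (chr1:106861018-106861058, + strand): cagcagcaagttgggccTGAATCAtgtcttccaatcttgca
Capitals mark the 7 letters of the motif, which begins 23, 54, 94 and 140 bases before the start.

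Serpinb5 (maspin), a non-inhibitory member named for the mammary gland, was at 583 CPM (538 to 632) in the 63 keratinocyte-like cells and at 23.5 and 24.5 CPM in tumour-like cells of libraries 1 and 2. The difference was 24.8-fold pooled, yet 72.4% of its UMIs in gated cells were in the more numerous tumour-like cells. Serpinb3b and Serpinb3a, inhibitors of cysteine proteases in squamous epithelium, were at 396 CPM (358 to 436) and 156 CPM (133 to 182) in keratinocyte-like cells. With 24.3% and 17.4% of their transcript ends shared, the division between them is uncertain. The 10 richest kept cells held 64.4% of the Serpinb3b and 67.0% of the Serpinb3a UMIs, so few cells set these levels. Serpinb5 levels were most like those of Lypd3 (r = 0.980).

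Among the members with fewer UMIs, Serpina1b and Serpina1d, of the alpha-1-antitrypsin group, were highest in pericyte-like cells, with 57.2% and 53.7% of their UMIs in gated cells there. Serpina1b, an inhibitor of neutrophil elastase in plasma, was at 278 CPM in library 2 and 39.7 CPM in library 3, and Serpina1d at 24.7 and 4.96 CPM. Few cells carried much of this, since the 10 richest kept cells held 38.9% of the Serpina1b and 42% of the Serpina1d UMIs. Endothelial-like cells of library 1 had 32.9 CPM of Serpina1b. Serpini1, neuroserpin, an inhibitor of tissue-type plasminogen activator, was at 26.5 and 47.1 CPM in pericyte-like cells of libraries 2 and 3. Serpina3f reached 39.1 CPM in endothelial-like cells of library 1. Serpina3h was at 22.5, 13.8, 4.42 and 3.71 CPM in fibroblast-like cells and at 24.7, 3.96 and 8.41 CPM in endothelial-like cells of libraries 1, 2 and 3. The plasma inhibitors Serpinc1 (antithrombin), Serpind1 (heparin cofactor II) and Serpinf2 (alpha-2-antiplasmin) had highest pooled levels of 3.57, 7.38 and 1.10 CPM, and the proteases Plg and F2 were at or below 0.15 CPM in every class.

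Classes were also compared inside each library that held at least 20 cells of both, counting a gene only when it differed at least 2-fold the same way in every such library. Fibroblast-like against tumour-like cells, in libraries 1 and 2, gave 14 of 27 members higher in fibroblast-like cells, beside 16.1% of all genes, and 1 (Serpinb5) higher in tumour-like cells, beside 11.2%. The first share was above the background, though some of its members passed the minimum of 20 UMIs through the fibroblast-like cells, as given below. The second share was below the background. The median log2 difference of the members was 1.07, against -0.05 for all genes. The widest differences in libraries 1 and 2 were those of Serpina3n, 422-fold and 49.5-fold, and Serpinf1, 356-fold and 37.6-fold, while Serpinh1 differed 11.2-fold and 7.34-fold. Serpinb1b, also counted, had no UMI in tumour-like cells of either library and passed the minimum of 20 UMIs through the fibroblast-like cells. Serpina1b, Serpina3i and Serpinb9b also had fewer than 20 UMIs in tumour-like cells and passed in the same way. Their levels in tumour-like cells of libraries 1 and 2 were 0.0395 and 0.124, 0.105 and 0.248, and 0.211 and 0.371 CPM. Serpinb8 and Serpina1b were each counted at 0.672 CPM in fibroblast-like cells of library 1, so these calls rest on low counts. Of 31 partners tested, 15 were higher in fibroblast-like cells, among them 6 collagen genes, and 1 (Pnpla2) in tumour-like cells. Col1a1, Col1a2, Col3a1 and Col5a1 were markers that gated the fibroblast-like class, so their place among the 15 was largely set by the gate.

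Pericyte-like against fibroblast-like cells, in libraries 2 and 3, gave 4 of 29 members higher in pericyte-like cells (Serpine2, Serpini1, Serpina1b and Serpina1d), beside 7.34% of all genes, and 14 higher in fibroblast-like cells, beside 19.7%, but 8 of those 14 had no UMI in pericyte-like cells of either library and passed the minimum of 20 UMIs through the fibroblast-like cells, so that count says little of them. Partners split the same way, with 5 of 30 higher in pericyte-like cells, including Col4a1 and Col4a2, and 17 higher in fibroblast-like cells. Those 17 include the fibroblast-like gate markers Col1a1, Col1a2, Col3a1 and Col5a1. Macrophages against monocytes, over 4 libraries, gave 1 of 18 members higher in macrophages (Serpina3g), beside 3.64%, and 1 higher in monocytes (Serpinb10), beside 1.24%, shares close to the background for so few genes. Mature DC against other conventional DC, in library 3 alone, gave 5 of 9 members higher in mature DC (Serpinb1a, Serpinb6a, Serpinb6b, Serpinb9 and Serpinb9b), beside 15.7%, and 0 lower, beside 17.5%, with a median log2 difference of 2.45 against -0.12. Of the 5, Serpinb9b had no UMI in the other conventional DC and passed the minimum of 20 UMIs through mature DC, so its call says little. Serpinb6b and Serpinb9, at 6.41 and 20.3 CPM in the other conventional DC, also had fewer than 20 UMIs there.

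Neutrophils with a UMI of Cd274, which encodes PD-L1, and none of Retnlg were compared with those with Retnlg, an early neutrophil gene. Of 14 members, 0 were higher in either group in all 4 libraries, beside 0.0375% and 0.206% of all genes. Regulatory against other CD4 T cells, in libraries 1, 2 and 3, gave 1 of 8 members higher in regulatory T cells (Serpina3g), beside 1.51%, and 0 lower, beside 1.13%. Serpina3g was at 337, 19.2 and 40.3 CPM in regulatory and at 86.1, 0 and 10.7 CPM in other CD4 T cells. NK-like with CD8 T cells against CD4 T cells, in libraries 1, 3 and 4, gave 4 of 12 members higher (Serpine2, Serpinb6b, Serpinb9 and Serpinb9b), beside 2.77%, and 1 lower (Serpinb1a), beside 2.26%. Of the 4, Serpinb9b was at 0, 0 and 1.48 CPM in CD4 T cells of these libraries. It passed the UMI minimum through the NK-like and CD8 T cells, so its call says little. Serpine2 was at 0, 1.19 and 7.41 CPM in the same CD4 T cells, so its call rests on low counts. The joined group was 234 CD8 T and 29 NK-like cells in library 1, but 9 and 15 in library 3 and 6 and 79 in library 4, so it was not the same mixture throughout. With libraries pooled, CD8 T cells alone had Serpinb6b UMIs in 18.6% of cells, against 25.1% of CD4 T cells. In library 1, which held most CD8 T cells, the order turned round. There the share was 17.5% of 234 CD8 T cells and 6.67% of 30 CD4 T cells. Gzma, Gzmb and Prf1, of 24 partners, were higher in the same cells, and Furin and Mmp9 lower. In the other comparisons the partners gave 1 higher and 3 lower of 31 in macrophages, 2 and 5 of 21 in mature DC, 0 and 1 of 27 in the Cd274+ neutrophils and 2 and 0 of 19 in regulatory T cells.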

How the data were processed

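Cells were dissociated from tumours, and 10x Genomics libraries were made by the authors. They deposited 1 matrix of raw UMI counts, 55450 genes by 33064 barcodes, which is the count table used here, with no normalization. Cell Ranger is named as 6.1.2 in the matrix header, 3.0.2 in the extract protocol and 2.1.1 in the submitters' notes; the build is mm10 (GRCm38). All 55450 gene IDs were found in GENCODE vM21, whose coordinates are used. No doublet caller was run, but cells with markers of several classes were left ungated.

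The members and gene lists were chosen with earlier results of these data known. A cell was gated when it had at least 3 markers of its best class and a score at least 1.5 times the next, the score being the mean of log2(1 + UMIs per 10000) over each marker's 90th percentile. That rule was set after the files were opened and before member levels were viewed. Counts were summed per class and library (barcode number), with 108363974, 81011506, 69144957 and 96221672 UMIs in libraries 1 to 4. CPM has exact 95% Poisson intervals, and shares of cells exact Clopper-Pearson intervals. Libraries with at least 20 cells of a class were compared, genes with at least 20 UMIs over both classes were tested for a 2-fold difference, and log2 medians use CPM plus 1. Alikeness is Pearson r of log2(CPM + 10). Members with at least 1000 UMIs were described in full, those with at least 20 by level and main class, and those below by count.

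No p-value was computed because the matrix pools samples with no map to treatment. Scripts used Python 3.11.15, numpy 2.4.6, scipy 1.17.1 and pandas 2.3.3 and were checked on simulated data. Alternatives were 500 genes, 10% mitochondrial UMIs, 4 markers, mixed cells kept, thinning to 1000 UMIs, equal weight per library, each library left out, 10 cells for detection, and 1.5-fold or 3-fold. Results for 1 of the members and 1 companion gene are not reported here. The planned comparison of proteins was not run, and 1890 cells were too shallow to thin.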

Additional observations from a re-analysis of the deposited data

Results flagged for a closer look

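In 50 series of 4 libraries with a highest level of at least 20 CPM, the library farthest from the others was checked against Dixon's 95% critical value for 4 samples, which chance passes in about 1 in 20. It was passed in 10, each time by library 1. All the series share the same 4 libraries, so these are not 10 separate findings. The libraries are samples of unknown treatment, so treatment, animal and handling cannot be told apart.

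Serpina3g in library 1 was at 43.7 CPM in monocytes, 175 CPM in cDC1 and 126 CPM in T cells, far above the other libraries. Serpine2 in library 1 was at 23.9 CPM in macrophages, 77.6 CPM in cDC1 and 319 CPM in fibroblast-like cells, again far above. Serpinb6b in cDC1 was at 349 CPM, Serpinb9 in fibroblast-like cells at 40.3 CPM and Serpinb6a in T cells at 225 CPM, each high in library 1. The T cells and fibroblast-like cells of library 1 were other mixtures of subsets than those elsewhere, as given above. Serpinb2 in macrophages was the exception in direction, at 1.34 CPM in library 1 and 18.8 to 20.4 CPM in the others. Library 1 was also lowest for Serpinb2 in fibroblast-like cells, and macrophages had 3.98%, 4.25%, 10.7% and 4.88% of that level in libraries 1, 2, 3 and 4. Fibroblast markers in macrophages were at 0.277%, 3.25%, 3.97% and 4.03% of their fibroblast level. Whether fibroblast RNA contributed to the macrophage values was not tested.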

How the results depend on the processing

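Filters on genes per cell and mitochondrial share, and the need for 4 markers, left the counts of members with over 50% of their UMIs in 1 class between 21 and 22, beside 43.1% to 44.3% of all genes. As a mean of libraries 18 of 27 members passed, beside 49.96% of all genes. With library 1 left out 22 of 25 passed, beside 78.3%, a much narrower margin. With library 2, 3 or 4 left out, 20 of 26, 19 of 27 and 18 of 27 passed, beside 39.9%, 35.9% and 41.4%. Thinned to 1000 UMIs, 8 members remained above 50% in 1 class, of 13 with enough UMIs, beside 23.04% of all genes, and 5 in the fibroblast-like class. Fewer members had enough UMIs to be tested. The summed fibroblast level was 4401 CPM with mixed cells kept, 4687 CPM thinned, 4694 CPM as a mean of libraries, and 4070.5 to 4997 CPM with 1 library left out. At 1.5-fold, the members higher in tumour-like than fibroblast-like cells were 2, beside 19.6% of all genes. Those higher in macrophages than monocytes were 4, beside 8.05%, and in monocytes than macrophages 2, beside 2.95%. Higher in other CD4 T than regulatory T cells was 1, beside 2.90%. At 3-fold, those higher in macrophages than monocytes were 0 and in NK-like and CD8 T than CD4 T cells 2. With 1 library left out, tumour-like over fibroblast-like cells gave 3 each time, fibroblast-like over pericyte-like cells 13 to 22 (22 without library 2), macrophages over monocytes 1 to 2, monocytes over macrophages 1 to 2 and other CD4 T over regulatory T cells 0 to 2.

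Of the 15 abundant members, 12 to 15 kept the class of highest level over these settings. Without library 1 the class changed for Serpinb5 (to tumour-like), Serpinb2 and Serpina3h (to fibroblast-like), since that library holds all keratinocyte-like cells. Serpinb10 moved to keratinocyte-like cells when thinned, as a mean of libraries or without library 4, and Serpina3h to endothelial-like cells as a mean of libraries or without library 2. The mature DC comparison rests on library 3 and has no value without it. Without library 1 the summed cDC1 level was 0.578 times its pooled value, without library 3 that of mature DC 0.560 times and its Serpinb9 and Serpinb6b levels 0.622 and 0.502 times, and without library 4 Serpinb10 in monocytes 0.363 times. No paired analysis was possible because no result comes from a test and the barcode numbers carry no sample number. Depth limits levels below a few UMIs per class.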

Other observations

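Cells left without a class carried serpins too: in 6405 ungated cells Serpinb6a was at 226 CPM, Serpinh1 at 175 CPM, Serpina3n at 16.5 CPM and Serpina3g at 15.3 CPM. In endothelial-like cells Serpinb6b, the cytosolic clade B member that was high in mature DC, was at 2.06, 7.69 and 128 CPM and Serpinb9 at 39.1, 28.4 and 74.6 CPM in libraries 1, 2 and 3. Library 3, which holds most mature DC, was highest for both among these cells. The highest count of Serpinb6b in any cell was 87 UMIs, in a fibroblast-like cell of library 3.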
